A study of Macaca fascicularis with 86 samples.

Results

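Cytosolic ribosomal protein genes encode the proteins of the large (RPL) and small (RPS) subunits of the ribosome that translates nuclear-encoded mRNA. They were followed across 86 laser-captured regions of gastrulating embryos of the crab-eating macaque. Members were all genes of the deposited table whose symbol has the form RPL or RPS and a number, with an optional A, X, Y or L suffix, together with RPLP0, RPLP1, RPLP2 and RPSA, leaving out the RPS6K kinases and any gene of the Y chromosome. No expression value entered this choice. The rule found 58 of 17023 genes: 30 of the large subunit, 23 of the small subunit and 5 paralogues (RPL3L, RPL22L1, RPL26L1, RPL39L and RPS27L). Other ribosomal protein genes, RPLP1, RPL38, RPS6 and RPS27A among them, are not analysed here. Of 79 canonical genes listed, 24 had no row under their symbol. The family's summed level and share below are therefore those of the 58 members, not of all ribosomal protein RNA.

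Ribosomes are assembled in the nucleolus from ribosomal RNA made by RNA polymerase I, ribosomal proteins imported from the cytoplasm, and many assembly factors that do not stay in the finished particle. Ribosomal protein mRNAs carry a pyrimidine tract at their 5′ end (TOP mRNAs), through which the mTOR pathway controls their translation together with that of the elongation factors. When assembly is disturbed, RPL5 and RPL11 bind MDM2 and stabilise p53. Inherited loss of 1 copy of RPS19 and of other family members causes Diamond-Blackfan anaemia, and the pluripotent epiblast is known as a rapidly dividing, biosynthetically active tissue.

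The regions came from 3 embryos without a reported treatment or genetic change. At embryonic day 18 (E18) there were 15 regions in 4 sections of a first embryo and 35 in 6 sections of a second, and at E20 there were 36 in 7 sections of the only embryo. Cryosections were dissected by laser, and polyadenylated RNA of 5 to 50 cells per region was sequenced (Geo-seq). Sections are numbered per embryo and sectors per section in the labels, which name no germ layer and no direction of the numbering. Stage is therefore compared over embryos, and regions of an embryo are not independent animals.

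The deposited values are TPM, a share of the reads scaled for transcript length, so levels of different genes can be set side by side. Depth is unknown, because no read counts were kept. The 13 mitochondrially encoded genes took a median share of 15.7% in E18 embryo 1, 29.4% in embryo 2 of that age and 17.5% at E20, of the deposited TPM. All levels below are TPM rescaled so that the other genes sum to 1000000 in each region. Genes at 1 or more on this scale numbered 6353 to 15098 per region, with a median of 10981 in E18 embryo 1, of 13159 in embryo 2 of that age and of 9496.5 at E20. Ribosomal protein genes have many processed pseudogenes and some near-identical copies, so how the authors' quantification split reads among them is uncertain for every member.

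E20 sections 1 to 5 and 6 to 7 are described separately, since earlier results of these data showed that their markers differ; the labels do not make this division. The 17 yolk sac endoderm genes, such as APOA1, AFP and TTR, together held a median of 9.01% of the rescaled TPM in sections 1 to 5 (0.0183% to 25.997%) and 0.00530% in sections 6 and 7 (0.00370% to 0.0306%), where APOC3, FGA and SERPINA1 were listed at 0 in every region. The 13 epiblast genes of the table, such as SOX2 and DNMT3B, held a median of 0.0199% (0.00725% to 0.0633%) against 0.214% (0.0321% to 0.393%). In sections 1 to 5, the epiblast gene FGF4 and 6 of 15 primitive streak genes, TBXT among them, were listed at 0 in every region. The 15 mesenchyme genes, such as COL1A1 and PDGFRA, held 0.585% against 0.0849% (medians). The blood and endothelium list held medians of 0.0837% and 0.00933%, the trophoblast list 0.0464% and 0.00502%, and the immune and decidual list 0.0124% and 0.00123%. Such a sum can rest on few genes. Of 8 trophoblast genes, 2 had a median of at least 1 rescaled TPM in sections 1 to 5 and 4 in sections 6 and 7. The amnion list held medians of 0.110% and 0.0527%, with 3 and 13 of its 13 genes at such a level. The part of these cell types in the differences below was not tested.

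Ribosomal protein RNA was among the most abundant RNA of every region. Of the 58 members, 47 were among the 100 genes with the highest mean level and 50 had a median of at least 1000 rescaled TPM over the 86 regions. The median of the members' medians was 2499 rescaled TPM. Together the members held between 9.67% and 26.1% of the rescaled TPM of a region, with a median of 15.04%. Members varied less within an embryo than the genes set beside them. The median SD of log2 levels over regions of an embryo was 0.37 for the members and 1.07 for all 15981 genes tested. It was 0.56 for the 235 other genes with a mean of at least 500. Those 235 were not matched to the members on level, and the part of level in the difference was not tested.

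The highest members by median level were RPL23A, RPL7, RPS16, RPS19 and RPS29. RPL23A, a protein of the large subunit at the exit of the peptide tunnel, ranged from 3945 to 11824 rescaled TPM over all regions, with a median of 6907. RPL7, another protein of the large subunit, had a median of 6285 and a wider range, 3046 to 15318. RPS16, RPS19 and RPS29 belong to the small subunit and had medians of 4529, 4455 and 4253. No single member dominated, since the 5 highest together made 18.2% of the family's summed level.

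The 5 lowest members by median were RPL3L, RPL39L, RPL26L1, RPS27L and RPL22L1, which are the 5 paralogues of the set. The lowest canonical member was RPL22, with a median of 415 rescaled TPM (262 to 741). RPL3L, a paralogue of RPL3 known from heart and skeletal muscle, was listed at 0 in 70 of 86 regions. Its values above 0 were in 1 region of E18 embryo 1 and in 15 regions of E18 embryo 2, where it reached 37.8, and it was listed at 0 in all 36 E20 regions. RPL39L, known for its expression in testis, was listed at 0 in 7 regions and had medians of 73.2 in E18 embryo 1, 23.4 in E18 embryo 2, 56.4 in E20 sections 1 to 5 and 56.0 in E20 sections 6 and 7. These medians lie within the spread of single regions, whose highest value was 159. The other 56 members were above 0 in every region.

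**Figure D1:**
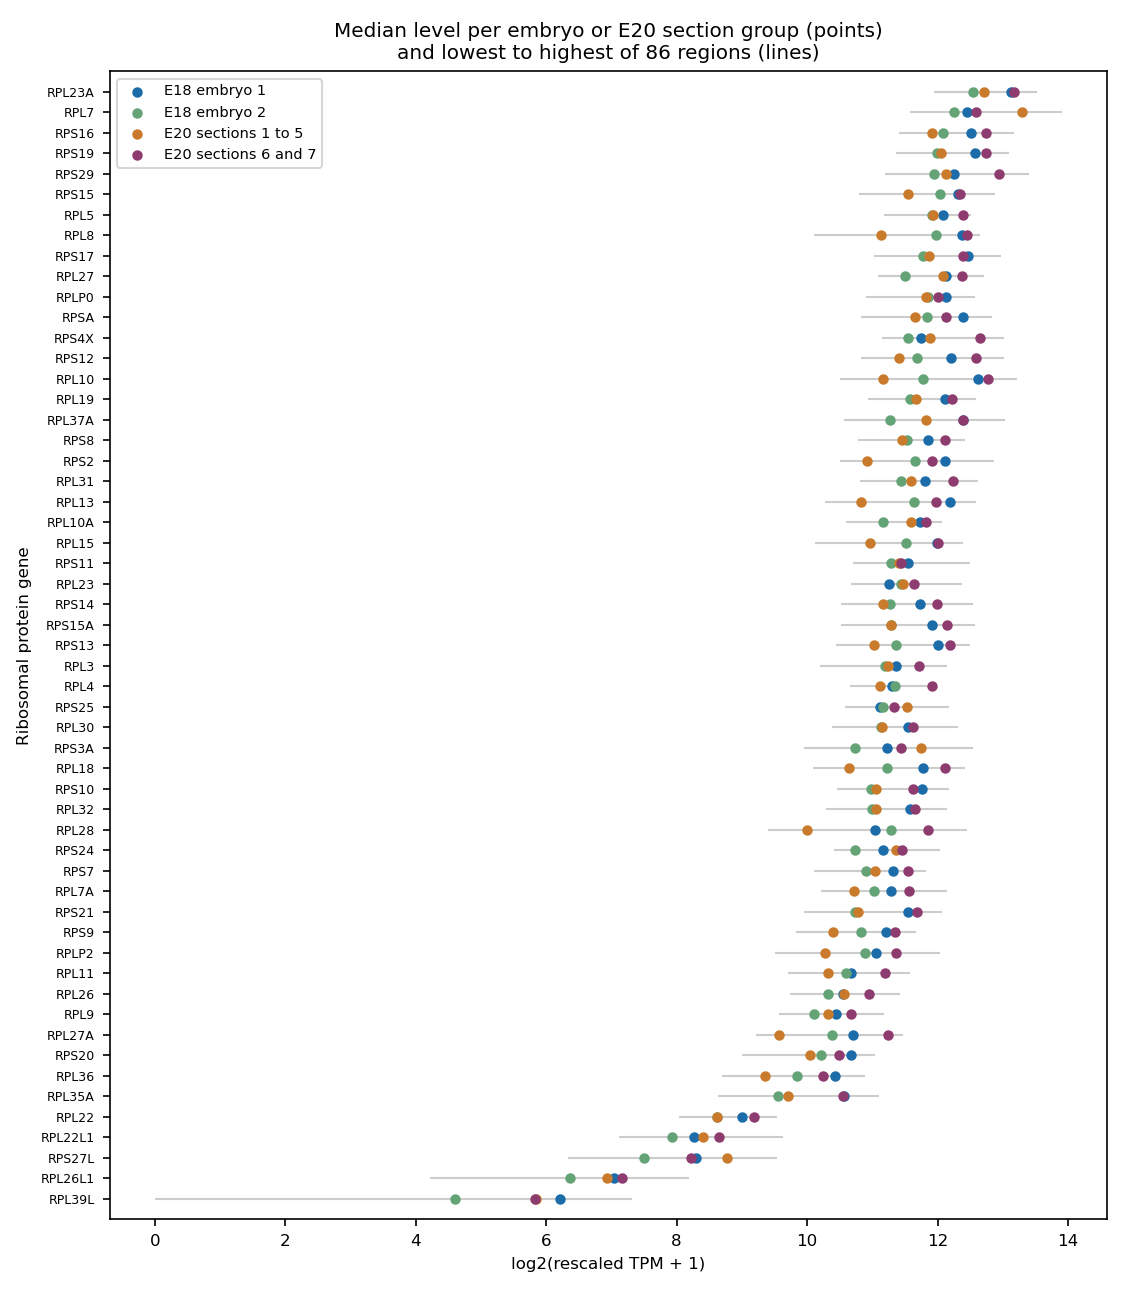
Median level of the ribosomal protein genes, as log2(rescaled TPM + 1), in E18 embryo 1 (15 regions), E18 embryo 2 (35), E20 sections 1 to 5 (28) and E20 sections 6 and 7 (8). Grey lines run from the lowest to the highest of the 86 regions. RPL3L, with a median of 0, and members not reported here are left out. By their medians over all regions the paralogues RPL22L1, RPS27L, RPL26L1 and RPL39L stand below the canonical members, although RPS27L is above RPL22 in E20 sections 1 to 5 (438 against 392), and RPL7 is highest in E20 sections 1 to 5.

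The paralogue RPL22L1 was not minor beside RPL22. RPL22L1 made a median of 41.4% of the summed level of the pair in E18 embryo 1, 38.4% in E18 embryo 2, 46.8% in E20 sections 1 to 5 and 40.9% in E20 sections 6 and 7. Over single regions this share ran from 21.8% to 58.4%, so the 4 medians differ by less than the spread among regions. RPL26L1 made 8.41%, 5.23%, 8.01% and 6.96% of the RPL26 and RPL26L1 sum in the same order. RPS27L, a p53-responsive paralogue of RPS27, had medians of 314, 180, 438 and 298 rescaled TPM. Its range in E18 embryo 1, 235 to 378, overlapped that in E18 embryo 2, 79.7 to 279.

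The family's share of the rescaled TPM differed between embryos of the same age. It was 18.99% ± 2.14 (SD, n = 15 regions, 14.6% to 23.8%) in E18 embryo 1 and 14.2% ± 1.73 (n = 35 regions, 10.3% to 18.1%) in E18 embryo 2. The ranges overlap, and with 1 embryo against 1 there is no test. On the log2 scale 52 of 58 members were lower in embryo 2 and the median difference was -0.43, while the median over all genes tested was 0.69 and 85.9% of genes were higher in embryo 2. RPL37A had the largest difference, -1.16. RPL23 (0.22), RPL28 (0.19) and RPL4 (0.09) were among the 6 members with a higher mean in embryo 2, as was RPL3L. Embryo 2 also had more genes detected and a larger mitochondrially encoded share, as given above, and the part of either in the difference was not tested. After quantile normalization, which gives each region the same set of values, the median difference was -0.10, with 38 of 58 members lower.

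No member was called between stages. The E20 embryo was compared with the E18 embryos on embryo means with limma, on log2(rescaled TPM + 1), with p-values adjusted over all 15981 genes by the Benjamini-Hochberg method at 0.05. Of the 58 members, 0 were higher and 0 lower, and 0 had an unadjusted p under 0.05, where 0.864% of all genes were called higher and 4.69% lower. The median difference was -0.06 over the members and -0.67 over all genes. Over the members it was -0.34 against E18 embryo 1 alone, and 0.38 with only E20 sections 6 and 7 as the E20 embryo. The sign depends on the parts compared. The family's median log2 level, averaged over regions, was 11.63 in E18 embryo 1 and 11.23 in E18 embryo 2. At E20 it was 11.29 over all regions, 11.16 in sections 1 to 5 and 11.76 in sections 6 and 7. A fit of all regions with an estimated correlation within embryos called 2 members higher. The E18 embryos differ from each other by more than the median difference of -0.06 between stages. With a single E20 embryo the fit has 1 residual degree of freedom.

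Within the E20 embryo, ribosomal protein RNA was higher in sections 6 and 7 than in sections 1 to 5. The family held 14.7% ± 2.96 of the rescaled TPM in sections 1 to 5 (SD, n = 28 regions, 9.67% to 23.01%) and 21.4% ± 2.63 in sections 6 and 7 (n = 8 regions, 16.8% to 26.1%). Section means were 15.05%, 16.6%, 11.3%, 14.4% and 13.2%, followed by 21.5% and 21.4%. Every one of the first 5 section means lies below both others, although single regions overlap. Genes detected numbered 6353 to 11139 in the former and 10732 to 11569 in the latter. In bulk regions, fewer cells of a type and less RNA per cell cannot be told apart.

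**Figure D2:**
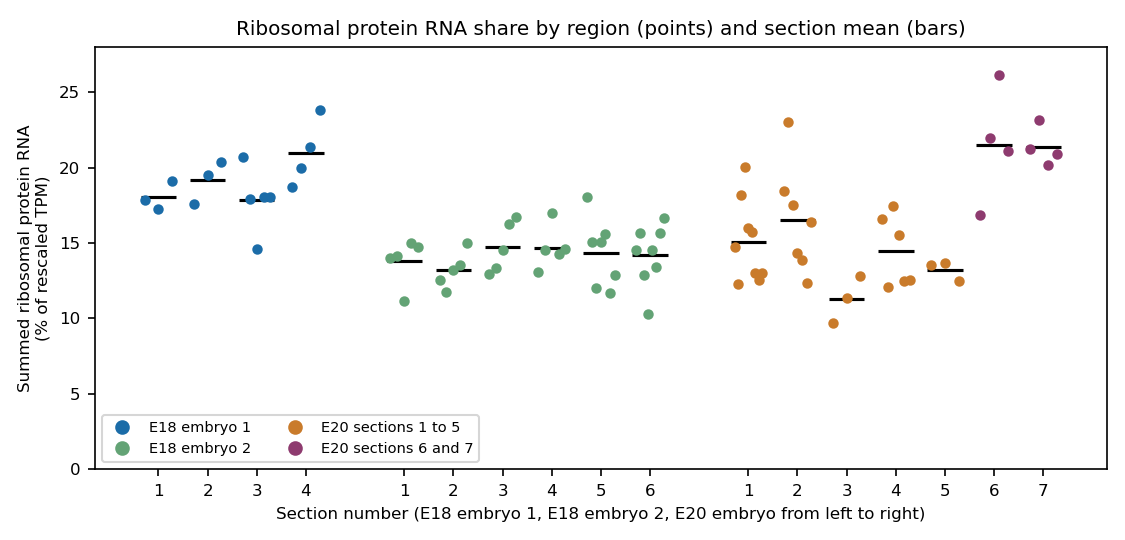
Summed level of the 58 ribosomal protein genes as a percentage of the rescaled TPM. Each point is a region, placed by section number and coloured by embryo or E20 section group, and each bar is a section mean. The regions of E20 sections 6 and 7 lie between 16.8% and 26.1%, and those of sections 1 to 5 between 9.67% and 23.01%.

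In a fixed total, very abundant transcripts leave a smaller share to every other gene. With the 17 yolk sac endoderm genes taken out of the total, the family's median share was 15.4% in sections 1 to 5 (13.01% to 23.3%) and 21.2% in sections 6 and 7 (16.8% to 26.1%). Across the 28 regions of sections 1 to 5, the share correlated with the yolk sac percentage at a Pearson r of -0.74 and a Spearman rho of -0.79. With those genes out of the total these were -0.52 and -0.45. The regions share 1 embryo and their values share a total, so these are descriptions.

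The section means of the E20 embryo were compared gene by gene with limma (5 means against 2). Of the 58 members, 32 were called higher in sections 6 and 7 and 1 lower, where 25% of all genes were called higher and 6.88% lower. The median difference was 0.65 log2 units over the members and 0.34 over all genes. The comparison covers 1 embryo, and its sections are not separate animals. Without section 7 the calls were 14 higher and 0 lower, without section 6 they were 18 higher and 1 lower, and with each region centred on the family's own median they were 9 higher and 10 lower, a balance that such centring sets near even. The share of all genes called under these settings is not given here, so whether members lost more calls than other genes is not shown.

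The largest differences were in RPL28, RPL27A, RPL10 and RPL8, all of the large subunit. RPL28 ranged from 676 to 3070 rescaled TPM in sections 1 to 5 (median 1020) and from 1522 to 5624 in sections 6 and 7 (median 3709). Its section means were 1187, 1344, 783, 1264 and 1066, then 2935 and 4403. The difference in log2 levels was 1.69 ± 0.24 (SE, adjusted p = 0.00294, limma on 7 section means). Single regions overlapped, and every section mean of the first 5 was below both others.

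RPL27A ranged from 593 to 1280 in sections 1 to 5 (median 762) and from 988 to 2829 in sections 6 and 7 (median 2421), with a log2 difference of 1.57 ± 0.15 (SE, adjusted p = 7.30e-04). RPL10, an X-linked gene whose protein is among the last to join the large subunit, had medians of 2304 (1455 to 4315) and 6973 (2903 to 9575). Its difference was 1.52 ± 0.16 (SE, adjusted p = 9.52e-04). RPL8, a protein next to the catalytic centre of the ribosome, had nearly separate ranges, with 1105 to 4242 in the first 5 sections and 4221 to 6443 in the others. Its difference was 1.35 ± 0.18 (SE, adjusted p = 0.00223). The ranges of RPL15, also of the large subunit, did not overlap, at 1117 to 2848 and 3447 to 5237. The 4 genes named first were called under each of the 18 alternative settings tried.

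The members fixed by known role that are named in this paragraph had differences between 0.24 and 1.03. RPL10, of the same panel, is given above with a larger difference, and the paralogue RPS27L is given below with a fall. RPLP2, part of the stalk that recruits elongation factors, differed by 1.03 ± 0.29 (SE, adjusted p = 0.0327). RPLP0, the base of the same stalk, had medians of 3618 (2825 to 6069) and 4109 (3239 to 5611) and was not called (0.24, adjusted p = 0.250). RPL11 rose by 0.82 (adjusted p = 0.0312), and its partner in binding MDM2, RPL5, had a difference of 0.42 that did not pass (adjusted p = 0.0553). RPS4X, the X-linked protein of the small subunit, rose by 0.79 (adjusted p = 0.0108), RPS19 by 0.66 (adjusted p = 0.00968), RPSA, also known as the laminin receptor, by 0.52 (adjusted p = 0.0208) and RPL22 by 0.53 (adjusted p = 0.0444). Without section 7, RPLP2, RPL11, RPS19, RPS4X and RPL22 were not called, and their differences were 0.62, 0.54, 0.66, 0.70 and 0.42. With the regions centred on the family, the differences of RPS19, RPSA and RPL22 were -0.01, -0.15 and -0.14.

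RPL7 went the other way. It had a median of 10098 rescaled TPM in sections 1 to 5 (6865 to 15318) and 6191 in sections 6 and 7 (4146 to 14217), and fell by 0.65 ± 0.19 log2 units (SE, adjusted p = 0.0393). Its section means were 10138, 11518, 10535, 9427 and 9351, then 8481 and 5145, and 1 region of section 6 reached 14217. The call was lost without section 7 (-0.33, adjusted p = 0.289), and also without each of sections 1 to 5, where the difference stayed between -0.61 and -0.68. RPS27L had the same difference, -0.65, which did not pass (adjusted p = 0.0729). RPS25 was near 0 (-0.02, adjusted p = 0.961).

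**Figure D3:**
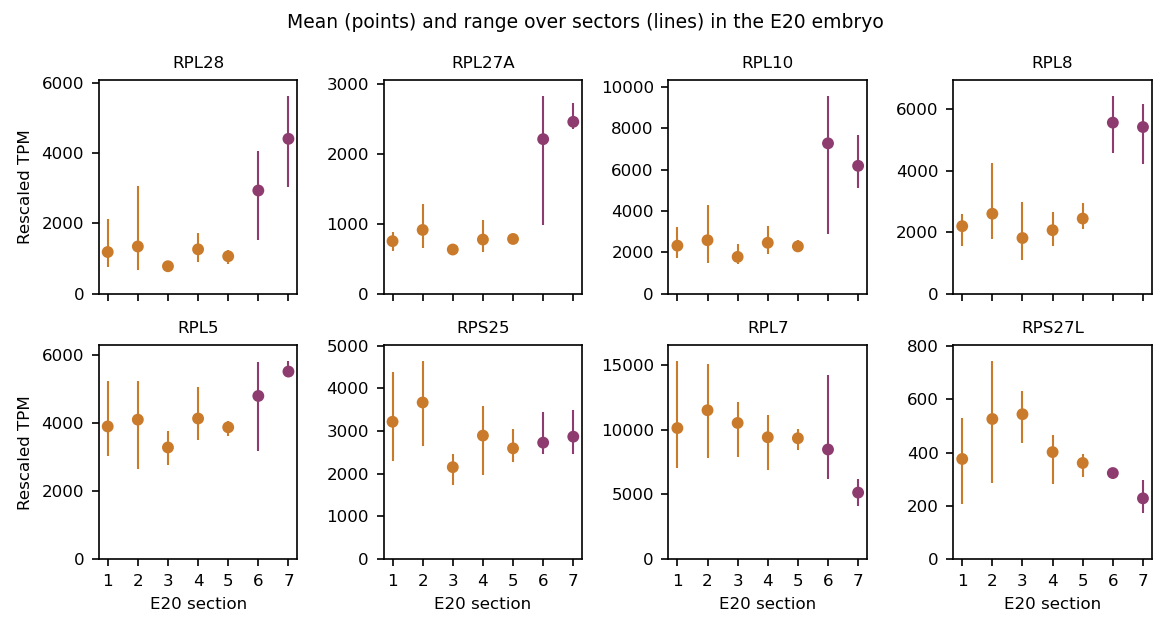
Rescaled TPM of 8 ribosomal protein genes in the 7 sections of the E20 embryo. Points are means over the sectors of a section and lines run from the lowest to the highest sector, orange for sections 1 to 5 and purple for sections 6 and 7. RPL28, RPL27A, RPL10 and RPL8 step up at section 6, RPL5 and RPS25 change less, and RPL7 and RPS27L have their lowest means in section 7.

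Other lists were counted in the same comparison, beside 25% of all genes higher and 6.88% lower; differences between lists were not tested. Of 34 ribosome biogenesis genes, 22 were called higher in sections 6 and 7 and 1 lower, with a median difference of 1.32 log2 units. PPAN and BOP1, which mature the large subunit, rose by 3.45 (adjusted p = 0.00793) and 2.96 (adjusted p = 5.01e-04). Without section 7, 7 of the 34 were called, without section 6 it was 12, and with genes detected as a covariate 8. Of 16 other TOP mRNA genes, 6 were higher, led by EEF1D (1.62) and HNRNPA1 (1.20), and 0 were lower. Of 64 mitochondrial ribosomal proteins, which serve the separate ribosome of the mitochondrion, 13 were higher and 10 lower. Of 19 cell cycle genes, 8 were higher and 0 lower.

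The section numbers were also used as a trend over all 86 regions, scaled to run from 0 to 1 within each embryo, with embryo as a block. Here and in the fits below, regions of an embryo are treated as independent beyond the block, so these p-values are too small. The slopes of 22 members were called higher and that of 1 lower, where 9.69% of all genes were called higher and 1.92% lower. In 19 of these 23 the slope had the same sign in each of the 3 embryos, a count not made for all genes. The calls rest on a slope pooled over the same 3 embryos, so such agreement is partly built in. Members correlated with each other, at a median pairwise r of 0.32 in E18 embryo 1 and 0.62 in E20 sections 1 to 5. Their signs are therefore not separate observations. RPL28 (0.96), RPL27A (0.81), RPLP2 (0.70) and RPL10 (0.60) had the largest slopes, and RPL7 fell by 0.55 over the same span. Without the E20 embryo 0 members were called. The count was also 0 with a block for each of the E20 section groups, and 0 on section means. On values centred on the family, the split was 9 higher and 8 lower.

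RPL28 and RPL7 kept their opposite slopes in each embryo. The slope of RPL28 was 0.63 and 0.49 in E18 embryos 1 and 2 and 1.57 at E20. That of RPL7 was -0.48, -0.37 and -0.76. Slopes differed between embryos for 13 members by a moderated F test, where 12.1% of all genes did. RPL8 had slopes of -0.08, -0.05 and 1.22, RPL15 of -0.24, -0.25 and 0.94, and RPL10 of 0.48, -0.13 and 1.40. With the E20 groups as separate blocks, 0 members had slopes that differed.

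Along sector numbers within a section, RPL7 was the only member called. Its slope was 0.33 ± 0.10 (SE, adjusted p = 0.0462), with 0.30 and 0.44 in E18 embryos 1 and 2 and 0.24 at E20. Within the E20 embryo it was 0.57 in sections 1 to 5 and -0.77 in sections 6 and 7. Of all genes, 2.38% were called higher and 0.544% lower, so 1 of 58 is near the background. Of the members, 5 had an unadjusted p under 0.05. RPL7 lost the call on deposited TPM (0.32, adjusted p = 0.195), after quantile normalization (0.22, adjusted p = 0.253), with a pseudocount of 0.1, without a filter, and without E18 embryo 2 or the E20 embryo.

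Each gene was next regressed on marker scores, the mean of a list's standardised log2 levels in a region, scaled to SD 1 within an embryo. No marker is a ribosomal protein gene. Over all 86 regions, 22 members were called higher with the epiblast score and 4 lower, where 28.9% of all genes were higher and 10.9% lower. With the primitive streak score 8 were higher and 3 lower, against 12% and 3.43% of all genes. With the yolk sac endoderm score 1 was higher and 33 were lower, against 5.36% and 10.9%. With the mesenchyme score 8 were higher and 0 lower, against 14.1% and 15.3%. With the amnion score 29 were higher and 1 lower, against 16.2% and 4.89%.

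For the alternatives that follow, the share of all genes is given only later, for the epiblast and mesenchyme scores of the E18 embryos. The pooled counts of members changed without the E20 embryo. Then 0 members were called with the yolk sac endoderm score or the primitive streak score, the epiblast score turned to 3 higher and 20 lower, the amnion score gave 7 higher and 3 lower, and the mesenchyme score gave more calls, 15 higher and 2 lower. With a block for each of the E20 section groups, both scores first named again gave 0 members, the epiblast score gave 2 higher and 4 lower, and the amnion score 2 higher and 3 lower. On deposited TPM the yolk sac endoderm score gave 3 lower. The share of higher and lower calls moved with centring on the family for every score but that of the primitive streak, to 10 and 13 for the epiblast, 7 and 5 for the yolk sac endoderm, 10 and 7 for the mesenchyme and 7 and 7 for the amnion. Quantile normalization moved it for the mesenchyme score, to 10 and 4, and deposited TPM for the primitive streak score, to 12 and 1.

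The epiblast score was then used within the E18 embryos alone. This comparison was added after the pooled results were seen. With the epiblast score, 20 of 58 members were called lower and 3 higher, where 11.4% of all genes were lower and 18.1% higher, and 35 were not called. The median slope was -0.07 log2 units per SD of the score over the members and 0.06 over all genes. Of the 34 ribosome biogenesis genes, 26 were higher and 1 lower, with a median slope of 0.28, and the difference between the lists was not tested. The 50 regions come from 2 embryos. Without E18 embryo 2, 0 members and 5 biogenesis genes were called, and the share of all genes called in that setting is not given here. On deposited TPM 2 members were higher and 0 lower, after quantile normalization 6 were higher and 12 lower, and centred on the family 8 were higher and 11 lower.

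Members with the lowest slopes on the epiblast score were RPL10, RPLP0, RPL7 and RPL23A. RPL10 ranged from 3402 to 8385 rescaled TPM in E18 embryo 1 and from 2264 to 6040 in E18 embryo 2. Its slope was -0.23 ± 0.05 (SE, adjusted p = 7.29e-05), with -0.08 in embryo 1 and -0.29 in embryo 2. RPLP0 ranged from 1905 to 5302 and from 2175 to 5263, with a slope of -0.22 ± 0.04 (SE, adjusted p = 1.32e-05). RPL23A had -0.20 ± 0.03 (SE, adjusted p = 3.34e-07), and RPL7 had -0.21, made of 0.01 in embryo 1 and -0.30 in embryo 2. All 4 lost the call without E18 embryo 2 and on deposited TPM.

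Slopes were higher for RPL22L1 (0.19, adjusted p = 0.0163), RPS21 (0.12, adjusted p = 0.0260) and RPS10 (0.10, adjusted p = 0.0359). RPL22L1 is the paralogue of RPL22, and the other two belong to the small subunit. RPL22L1 had 0.09 in E18 embryo 1 and 0.23 in embryo 2. RPS21 and RPS10 were at -0.02 and -0.03 in embryo 1, and 0.18 and 0.15 in embryo 2. With the section as the block, RPS21 and RPS10 were not called (adjusted p of 0.0798 and 0.0695).

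The mesenchyme score gave the mirror image in the E18 embryos. Both scores share 1 axis of these regions, since they correlated at r = -0.80 over the 15 regions of embryo 1 and -0.94 over the 35 of embryo 2, so the mesenchyme result is not a second line of support. The amnion score correlated with the epiblast score at -0.61 and -0.81 over the same regions. Of the members, 15 were called higher and 2 lower, where 14.6% of all genes were higher and 17.4% lower. RPL10 (0.23), RPL23A (0.18), RPS29 (0.17) and RPLP0 (0.17) had the highest slopes, and RPL22L1 fell by 0.19 and RPS10 by 0.10. Without E18 embryo 2 the count was 0 and on deposited TPM it was 3. After quantile normalization 15 were higher and 7 lower, and centred on the family 7 and 7.

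**Figure D4:**
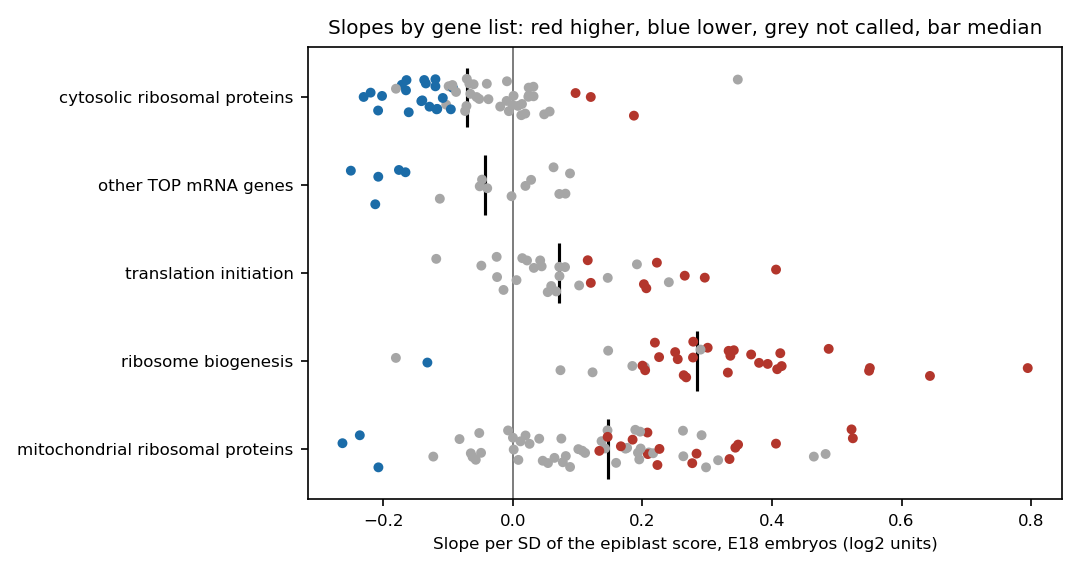
Slope of each gene per SD of the epiblast score over the 50 regions of the E18 embryos, in log2 units, for 5 gene lists. Each point is a gene, red where called higher, blue where called lower and grey where not called, and bars are list medians. Cytosolic ribosomal proteins have a median of -0.07 and ribosome biogenesis genes of 0.28.

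Other lists of the translation machinery were counted along the epiblast score of the E18 embryos, beside 18.1% of all genes higher and 11.4% lower. Of 16 other TOP mRNA genes, 5 were lower and 0 higher, among them the elongation factors EEF1A1 (-0.25, adjusted p = 8.45e-06) and EEF2 (-0.21, adjusted p = 3.13e-05), EIF3F (-0.21) and TPT1 (-0.18). On deposited TPM 0 of the 16 were called, and without E18 embryo 2 again 0. The largest slopes among biogenesis genes were those of RRS1 (0.79, adjusted p = 2.96e-05), PPAN (0.64) and RRP9 (0.55), which act in large subunit assembly, in the same process, and in processing of the small subunit's RNA. Of 11 RNA polymerase I genes, 6 were higher and 1 lower. Of 29 initiation factors, 8 were higher and 0 lower. Of 64 mitochondrial ribosomal proteins, 16 were higher and 3 lower.

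Of 14 growth control genes, 3 were higher with the same score and 2 lower, where 18.1% of all genes were higher and 11.4% lower. EIF4EBP1, the translational repressor that mTOR inactivates, fell by 0.75 log2 units per SD of the epiblast score in the E18 embryos (adjusted p = 6.42e-12), and MYCN, a transcription factor of ribosome biogenesis, rose by 0.54 (adjusted p = 0.00120). Of 19 cell cycle genes 17 were higher and 0 lower. Genes detected correlated with the epiblast score at r = 0.55 in embryo 1 and 0.15 in embryo 2, and the mitochondrially encoded share at 0.41 and 0.17. With genes detected as a covariate, 4 members were called higher and 19 lower, and with the mitochondrially encoded share 3 and 17.

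Beyond the common level, members differed in a pattern whose ends shared some members in each part of the data. Each region's log2 levels were centred on the family, and the first principal component of 56 members (without RPL3L and RPL39L, which are listed at 0 in some regions) was taken separately in E18 embryo 1, E18 embryo 2, E20 sections 1 to 5 and E20 sections 6 and 7. It held 46.2%, 37.7%, 29.6% and 52.6% of the variance. In E20 sections 1 to 5 its largest loadings were those of the paralogues RPL26L1 (-0.64) and RPS27L (-0.37), with RPL28 at 0.14. RPL26L1 also had the largest loading in E18 embryo 1 (-0.44). It is a low member, at 17.6 to 292 rescaled TPM, with a within-embryo SD of 0.76 log2 units, the largest of the 56. RPL28 (0.63) and RPLP2 (0.55) had the next largest SDs. Levels were not scaled to equal variance, so members that vary most tend to reach the ends of a component. RPL28, RPLP2 and RPS12 were among the 10 members at one end in 4 of 4 parts, with RPL11, RPL23 and RPL31 in 3 of 4. RPL7, RPL3, RPLP0 and RPL26L1 were among the 10 at the other end in 4 of 4 parts, and RPSA in 3 of 4. RPLP0 and RPLP2 stand at opposite ends although their proteins form 1 stalk.

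The pair of RPL7 and RPL28, at opposite ends in each part, gives 1 measure of this pattern. The log2 level of RPL7 minus that of RPL28 had a median of 1.42 in E18 embryo 1 (-0.48 to 2.94), 0.98 in E18 embryo 2 (-0.35 to 2.25), 3.23 in E20 sections 1 to 5 (1.73 to 4.34) and 0.78 in E20 sections 6 and 7 (-0.28 to 3.22). E20 sections 1 to 5 had the highest median, and their range overlapped that of each other group. The component correlated with genes detected at r = -0.54, 0.13, -0.48 and 0.30 over the 15, 35, 28 and 8 regions in the same order, and with the mitochondrially encoded share at 0.57, 0.32, 0.25 and 0.43. The sign is that of RPL28, and these are descriptions over regions that share an embryo and preparation. Their part in the pattern was not tested.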

How the data were processed

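Polyadenylated RNA of 86 laser-captured regions of 3 embryos was sequenced. Per the submitters' processing notes, fastp, HISAT2 and StringTie were used; versions are not stated, and which build and annotation served is not given in the sources used here. The authors deposited 1 table of TPM per gene, with column sums between 495547 and 777987, so not all genes they normalized over are in it. All columns matched the labels of 1 region each.

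Here the 13 mitochondrially encoded rows were left out and each region was rescaled to a sum of 1000000. Genes at 1 or more in at least 10 regions were tested (15981, all 58 members among them), as log2(value + 1), so fold changes of low genes are understated. The tests are those of limma 3.58.1 (moderated with a trend, R 4.3.3), adjusted by Benjamini-Hochberg over all genes at 0.05; statmod 1.5.0 gave estimated correlations. The models of stage, E20 sections, section trend, sector trend and scores were tested on simulated data holding genes of known effect. The F test of slopes between embryos was not. Simulated regions were independent of each other, so this check does not cover correlation among regions of an embryo. Descriptions used Python 3.11.15, numpy 2.4.6 and pandas 2.3.3, and pictures matplotlib 3.10.9. Members, gene lists and the division of the E20 sections were chosen with earlier results of these data known. All 58 symbols are in a RefSeq gene table for the species, which served for names only. Regions of an embryo are samples of 1 animal, so p-values of fits on regions or sections measure only the spread among them.

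Named genes are the 5 highest and lowest members, those at 0 in any region, and up to 10 called members per direction and comparison. To these come a panel of 13 ribosomal protein genes and 11 paralogues or partners fixed by role, and up to 4 called genes of each other translation list. Not all genes of the panel or of the 11 are among the members analysed: RPLP1, RPL38, RPS6 and RPS27A of the panel are not. RPS25, RPL37A, RPL4, RPL3, RPL23 and RPL31 were named after their values were seen, as were the 13 members whose slopes differed between embryos. Alternatives were deposited TPM, quantile normalization, centring on the family, a pseudocount of 0.1, no filter or a filter of 5 in 20 regions, other blocks and covariates, and leaving out an embryo or section. Some, such as the E18 embryos alone, were added after seeing the data. Apart from that one, counts of members under an alternative are given without the share of all genes called under it. Some members entered the counts but are not reported here by name.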

Additional observations from a re-analysis of the deposited data

Results flagged for a closer look

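In E18 embryo 2, section 1, the family's share of the rescaled TPM was lowest in sector 3, 11.1%, and the gap to the next sector was 0.744 of the section's range. This was 1 gap past Dixon's 95% critical value in 16 groups tested, and chance alone gives about 1 in 20. The groups were the sections of suitable size and, for each embryo, its section means, so they are not all independent.

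The slope on section number differed between the 3 embryos for 13 members by a moderated F test in limma, where 12.1% of all genes did. For the 11 reported here, the adjusted p was 0.0001625 for RPL8, 0.0007434 for RPL15, 0.001305 for RPL10, 0.002081 for RPL27A, 0.003793 for RPS9, 0.01002 for RPL18, 0.01348 for RPS13, 0.01603 for RPL13, 0.0164 for RPL7A, 0.02551 for RPSA and 0.0381 for RPL4. In each of the 13 the slope was highest in the E20 embryo, where it ran from 0.54 (RPSA) to 1.47 (RPL27A). With a block for each of the E20 section groups, 0 members passed.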

How the results depend on the processing

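No paired analysis was possible because the labels number sections and sectors within an embryo and give no replicate numbers shared between groups. With 3 embryos and unknown depth, small differences between stages cannot be resolved. The E20 comparison of sections 6 and 7 with 1 to 5 kept its direction under every alternative but centring on the family (19 members called, 9 higher and 10 lower, with 1 higher and 5 lower of the other TOP genes, and -0.1509, -0.0136 and -0.1378 for RPSA, RPS19 and RPL22); leaving out a section gave 14 to 32 members. For the 4 largest differences no alternative ended the call.

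On deposited TPM the members called were 14 for the section trend, 0 for the sector trend, 3, 5 and 13 for the yolk sac endoderm, mesenchyme and amnion scores, 2 (turned to higher) and 3 for the epiblast and mesenchyme scores of the E18 embryos, and 4 for slopes between embryos. Quantile normalization gave 0 for sectors, 14 for the mesenchyme score and -0.1004 for the E18 difference. Centring gave 3 for stage, 23, 12, 7, 17 and 14 for the epiblast, yolk sac endoderm, streak, mesenchyme and amnion scores (the first 2 of these turned in direction) and -0.0335 for the E18 difference. For sectors, a pseudocount of 0.1, no filter and regions with at least 8000 genes each gave 0; the last gave 6 for the streak score. An estimated embryo correlation gave 2 for stage.

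Section means gave 0 for the section trend. With the E20 groups as separate blocks, the section trend, slopes between embryos, streak and yolk sac endoderm scores gave 0, the epiblast score 6 and the amnion score 5 (both turned), and the mesenchyme score 21. With the section as the block, the epiblast score gave 17 (turned), the streak and yolk sac endoderm scores 0, the mesenchyme score 25 and the amnion score 12. Genes detected as a covariate gave 3 for the streak score. The cause was not tested.

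Leaving out an embryo in turn, the members called ran from 0 to 26 for the section trend, 0 to 1 for the sector trend, 0 to 16 for the streak score, 0 to 43 for the yolk sac endoderm score, 1 to 17 for the mesenchyme score, 10 to 33 for the amnion score and 23 to 37 for the epiblast score, where 23 (without the E20 embryo, 3 higher and 20 lower) turned in direction. In the E18 embryos they ran from 0 to 23 for the epiblast and 0 to 22 for the mesenchyme score; without embryo 1 or 2, the slopes on the epiblast score were 0.1797 or -0.0237 for RPS21, 0.1487 or -0.0287 for RPS10 and -0.2958 or 0.0059 for RPL7, and that of RPS10 on the mesenchyme score was -0.1651 or 0.0499.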
